A study of Mus musculus with 6 samples.

Results

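Mouse embryonic stem cells infected with a lentivirus for a short hairpin RNA (shRNA) against Chd4 were compared with stem cells infected with a control shRNA virus, both at day 0, before any differentiation. The comparison uses 2 of the 6 arrays of the series, 1 array a side, and every probe set that the array's annotation ties to exactly 1 gene symbol, which were 23521 of 34351 probe sets and stood for 22180 genes. A gene with several such probe sets was read from the one of highest mean intensity over the 6 arrays. The 13445 genes whose brighter array reached that array's own median intensity were compared. The other arrays hold an Mbd3 shRNA line at day 0 and all 3 lines at day 4 of neural differentiation, 1 array each.

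The day 0 cells of every line grew on gelatin in a serum medium with leukemia inhibitory factor (LIF), which holds stem cells undifferentiated. The day 4 cells had been re-aggregated in wells of low adhesion and kept 4 days in a serum replacement medium that leads to neural cells. All lines share the lentiviral infection, and the labels name no altered allele in any of them. The parent stem cell line, the mouse strain, the hairpin sequences, the time between infection and harvest, and whether a line is a pool of infected cells or 1 clone are not given in the sources used here. With 1 array per group there is no replicate spread at all, so no difference has a test, and precision is set by the number of arrays.

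CHD4 is the ATPase motor of NuRD, the nucleosome remodeling and deacetylase complex. NuRD slides nucleosomes and removes acetyl groups from histones. The complex also holds the deacetylases HDAC1 and HDAC2, the histone binders RBBP4 and RBBP7, the MTA and GATAD2 scaffolds, and either MBD2 or MBD3. In stem cells it is known for tempering the output of active genes, pluripotency genes among them, and for being needed when the cells leave self-renewal.

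Intensities on the arrays ran from 17.4 to 7980 on a linear scale, and the array medians from 39.6 to 41.4. A value under 41.4, the highest array median, is treated as below a floor, and a difference that involves one is given as "at least". The stem cell label held against its markers: 9 of 10 embryonic stem cell markers were above the floor in both day 0 arrays, Dppa5a being the exception, with a summed intensity of 12559 in control and 11765 in Chd4-knockdown cells. The defining markers of other cell types had lower sums, though many of them were at or above the floor. In control and knockdown cells 4 and 2 of 6 neural progenitor markers were, with sums of 316 and 255. So were 6 and 6 of 7 trophectoderm markers, with sums of 732 and 621. For 7 fibroblast, 6 endoderm and 5 mesoderm markers the counts were 4 and 4 each. Their sums were 366 and 434 for fibroblast, 270 and 285 for endoderm, and 264 and 256 for mesoderm markers. Fabp7, Zic1, Col3a1, Dcn, Lum, Afp, Mesp1 and Elf5 were under the floor in both. The part of these small shifts in the results that follow was not tested.

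The hairpin's target checks the labels. Chd4 stood at 973 in control cells, 289.6 in the Chd4 line and 896 in the Mbd3 line at day 0, and at 1021, 727 and 942 in the same order at day 4. The Chd4 line at day 0 is thus the lowest of the 6 arrays, at 29.8% of control, and the other 5 lie between 727 and 1021. Nop2, a nucleolar RNA methyltransferase gene, is next to Chd4 in genome order among the genes measured here and was picked for that position. It differed by -0.85 on the log2 scale, whereas Ing4, next on the other side in that order, differed by 0.27.

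The remaining NuRD genes were close to the control level. Of the 16 subunits and paralogs, Chd4 was the 1 gene lower by 2-fold or more and Chd3 the 1 gene higher, as were 0.565% and 0.692% of all genes compared, while the other 14 had log2 differences from -0.16 (Cdk2ap2) to 0.40 (Chd5), and the median of all 16 was 0.00. Hdac1 read 1404 and 1404 in control and knockdown cells, Hdac2 628 and 582, and Mbd3 216 and 204. Chd3 encodes a CHD4-like ATPase that can take its place in the complex. It read 94.3 in control, 236 in the Chd4 line and 118 in the Mbd3 line at day 0, a log2 difference of 1.32 for the Chd4 line. At day 4 the order was turned, with 418 in control, 149 in the Chd4 line and 187 in the Mbd3 line. A second Chd3 probe set gave a smaller day 0 difference of 0.47, from 45.8 to 63.4.

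Across the 13445 genes, few stood far apart. In the Chd4 line 93 genes (0.692%) were higher and 76 (0.565%) lower by 2-fold or more, together 1.26%. With values under the floor set to it, 158 of the 169 were past 2-fold. At 1.5-fold these counts were 542 (4.03%) and 479 (3.56%). The median log2 difference of all genes was -0.01 and its standard deviation across genes 0.33, with 95% of genes between -0.66 and 0.69. A yardstick for the spread between probe sets comes from the 493 genes with 2 or more probe sets that passed the filter. The probe sets of 1 gene differed in their log2 difference by 0.20 in the median and by 0.71 at the 95th percentile. All lie on the same 2 arrays, so noise that the probe sets of an array share is not in this spread. Neither is the variation between cultures, which was not measured.

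**Figure D1:**
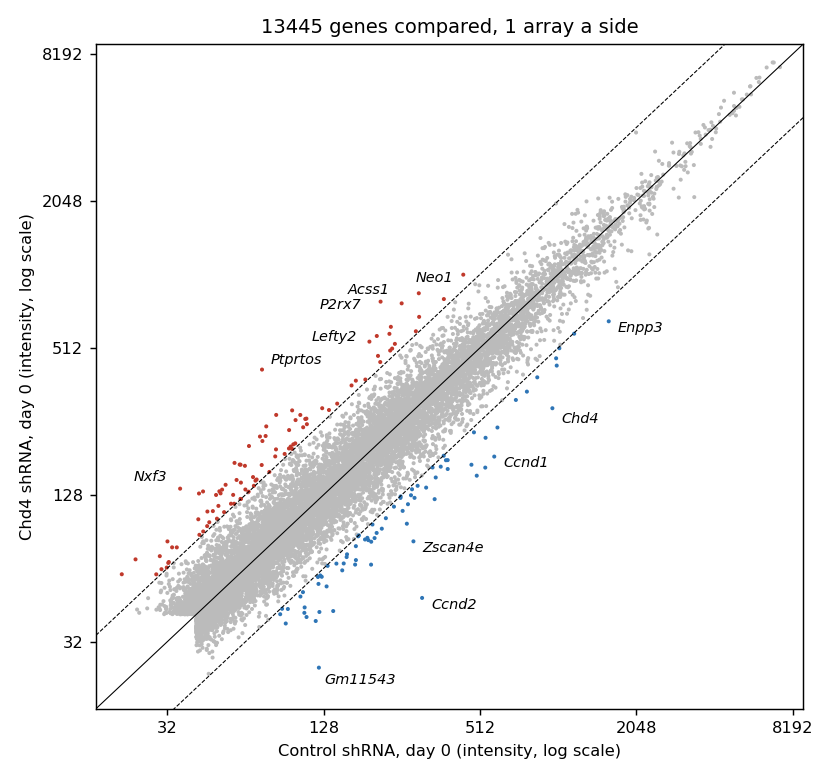
Intensity of 13445 genes in control shRNA cells (horizontal) and Chd4 shRNA cells (vertical) at day 0, both on log scales, 1 array each. The solid line marks equal intensity and the dashed lines 2-fold, with the 93 genes higher in red and the 76 lower in blue, and Ccnd2, at 306 against 48.4, lies farthest under the diagonal among genes above the floor in both arrays.

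The lowest gene relative to control belongs to the G1 machinery of the cell cycle. D-type cyclins pair with CDK4 or CDK6 and start the phosphorylation of the retinoblastoma protein, and p21 and p27 restrain cyclin-dependent kinases. Ccnd2, which encodes cyclin D2, read 306 in control, 48.4 in the Chd4 line and 60.6 in the Mbd3 line at day 0. At day 4 it read 1858, 119 and 180.1. Both knockdown arrays were thus far below control at both days, and the day 0 difference was 6.33-fold in the Chd4 line.

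Ccnd1, which encodes cyclin D1, followed the same order. It read 581 in control, 184 in the Chd4 line and 261 in the Mbd3 line at day 0, and 1139, 322 and 377 at day 4. The third D cyclin did not share it: Ccnd3 read 468, 453 and 456 at day 0, a log2 difference of -0.05. Among the partner kinases, Cdk6 read 343 in control, 123 in the Chd4 line and 259 in the Mbd3 line, and was 2.79-fold lower in the Chd4 line. Cdk4 read 1737, 1706 and 1746 and differed by -0.03 on the log2 scale. At day 4 Cdk6 was again lower in the Chd4 line, at 166 against 348.

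Of the inhibitors, Cdkn1a and Cdkn1b lay on the other side, short of 2-fold. Cdkn1a, the gene of p21, read 404 in control, 689.6 in the Chd4 line and 612 in the Mbd3 line, 1.71-fold higher in the Chd4 line. Cdkn1b, the gene of p27, read 98.1, 177 and 108, 1.80-fold higher in the Chd4 line, and at day 4 it was lower there, at 84.8 against 236. Lockd, a noncoding gene next to Cdkn1b that was named for its position, differed by 0.93 at day 0 beside 0.85 for Cdkn1b. Of the 25 genes compared on the list of cyclins, kinases, inhibitors, RB proteins and E2F factors, these were the 3 lower by 2-fold or more (Ccnd2, Ccnd1 and Cdk6) and none was higher by that much, against 0.565% and 0.692% of all genes. Cdkn1a and Cdkn1b were the only 2 genes of the list higher by 1.5-fold or more (against 4.03% of all genes). The other inhibitor genes compared, Cdkn1c and Cdkn2a among them, did not reach that. The list's median was -0.03, near that of all genes. E2f8, a repressor of the E2F family, came next at -0.66, while Ccne1, the gene of cyclin E1, differed by -0.25 and Rb1 by 0.28.

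**Figure D2:**
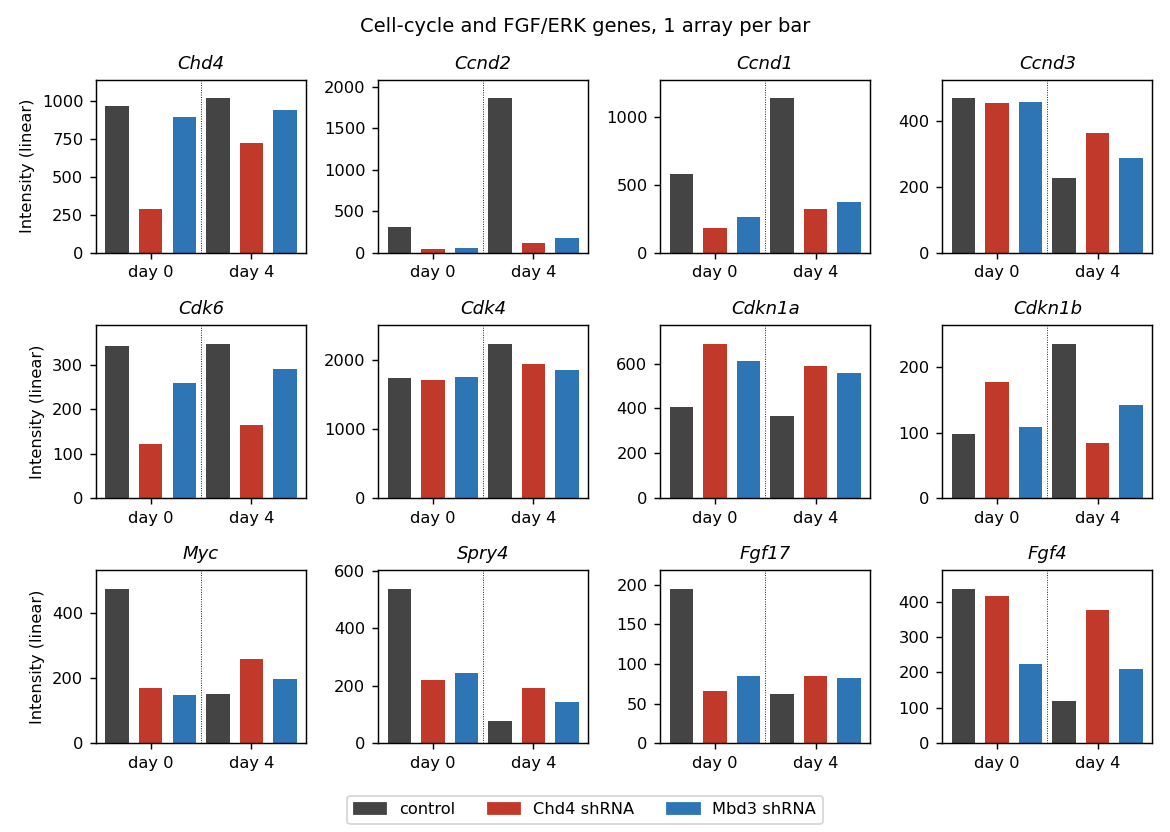
Intensity (linear scale from 0) of 12 cell-cycle and FGF/ERK genes in the 6 arrays, each bar 1 array: control in grey, Chd4 shRNA in red and Mbd3 shRNA in blue, day 0 to the left and day 4 to the right of the dotted line. Ccnd2 and Ccnd1 are lower in both knockdown lines at both days, whereas Ccnd3 and Cdk4 are level at day 0.

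Genes of DNA replication and mitosis differed little. Of 41 compared, 28 were lower and 13 higher, with a median of -0.14, and 1 was lower by 2-fold (against 0.565% of all genes). That gene was Pold2, which encodes an accessory subunit of DNA polymerase delta. It read 498 in control, 153 in the Chd4 line and 318 in the Mbd3 line at day 0, and 471, 363 and 364 at day 4, so the Chd4 line at day 0 stands apart from the other 5 arrays. Rrm2, a subunit of the enzyme that makes deoxynucleotides, and Cdc6, which loads the replicative helicase, both differed by -0.52. Mki67, the marker of cycling cells, read 892 and 1177, a log2 difference of 0.40.

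Several of the other lowest genes had the pattern of Chd4 itself, low in the Chd4 line at day 0 and little moved in the Mbd3 line. Septin2, a filament-forming GTPase gene of the cytoskeleton, read 537 in control, 165 in the Chd4 line and 471 in the Mbd3 line, and from 476 to 640.0 in the 3 day 4 arrays. Nme4, a mitochondrial nucleoside diphosphate kinase gene, read 268, 97.4 and 249.8 at day 0 and 189, 213 and 250.1 at day 4. The nucleosome-binding protein gene Hmgn5 read 110.0, 40.4 and 139, which is at least 2.66-fold lower in the Chd4 line. In each of these 3 genes the Chd4 line was the lowest of the day 0 arrays by a wide margin, and the Mbd3 array lay within 0.34 on the log2 scale of control. Slc1a3, a glutamate transporter gene, was similar, at 108, 42.03 and 90.5. Enpp3, an ectonucleotidase gene, was bright in all arrays and read 1603 in control, 658 in the Chd4 line and 1283 in the Mbd3 line. At day 4 Enpp3 was the other way round, 708 in control and 1596 in the Chd4 line.

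Some low genes lay near the floor in the Chd4 line and were low in the Mbd3 line as well. Trim36, a ubiquitin ligase gene, read 123 in control, 42.4 in the Chd4 line and 47.6 in the Mbd3 line. Il13ra1, a subunit of the interleukin-13 receptor, read 108, 44.2 and 48.97. The predicted gene Gm11543 was at least 2.96-fold lower in the Chd4 line and the carbonyl reductase gene Cbr3 at least 2.88-fold. Crybg3, a member of the crystallin fold family, read 169, 66.3 and 94.03.

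Further genes among the 76, chosen after their values were seen, lay between 2-fold and 2.41-fold lower. Slc40a1, the iron exporter ferroportin, read 151 in control, 62.8 in the Chd4 line and 171 in the Mbd3 line. Epas1, which encodes the hypoxia factor HIF-2 alpha, read 346, 151 and 145. Prtg, an immunoglobulin-family surface protein gene of the early neural tube, read 205, 89.3 and 306. The Mbd3 array was thus near or above control for Slc40a1 and Prtg and as low as the Chd4 array for Epas1.

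More genes were chosen in the same way, with values in control and the Chd4 line. Ap1s1 and Ap2s1, which encode small subunits of clathrin adaptors, read 158 and 73.00, and 239 and 114. Ap1m2, which encodes a medium subunit, was higher, at 99.8 and 259. Gfpt2, of the hexosamine pathway, read 1011 and 433, and the corepressor gene Tle4 1035 and 510.0. Phc1, of the first Polycomb complex, read 1180.1 and 585, and Dag1, the matrix receptor dystroglycan, 851 and 388. Nab2, which binds and restrains EGR factors, read 336 and 166, with a second probe set at -0.23.

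Some of the low genes belong to FGF and ERK signaling. FGF4 made by stem cells acts on FGF receptors and the kinase ERK, which pushes the cells toward differentiation and switches on its own inhibitors of the Sprouty and DUSP families. Among the ligands, Fgf17 read 195 in control, 66.2 in the Chd4 line and 84.3 in the Mbd3 line at day 0, 2.94-fold lower in the Chd4 line. Fgf15 read 195, 82.2 and 64.3, 2.37-fold lower, though its second, dimmer probe set differed by -0.27. Fgf4 itself was level, at 436 in control and 417 in the Chd4 line, and lower in the Mbd3 line at 223. The receptor Fgfr1 differed by -0.37. Over the 12 ligand, receptor and binding-protein genes compared the median was -0.25, with 2 lower by 2-fold (against 0.565% of all genes) and none higher. Over all 16 on the array it was -0.14.

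Genes that ERK induces were more often lower than higher. Of 23 feedback and immediate early genes, 16 were lower, 7 of them by 1.5-fold or more against a background of 3.56%, and none was higher by 1.5-fold. Spry4, a Sprouty inhibitor of receptor tyrosine kinases, read 538 in control, 219 in the Chd4 line and 245 in the Mbd3 line. Myc, a growth-promoting transcription factor gene that LIF and ERK signals feed, read 475, 170.0 and 148. In both genes the 2 knockdown arrays were well below control. Srf, the serum response factor, differed by -0.94, Etv4 by -0.78, Spred1 by -0.65, Egr1 by -0.63 and Dusp6, the ERK phosphatase gene, by -0.60. The early genes did not all move: Spry2 differed by 0.20 and Fos by 0.45. The median of the list was -0.19.

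Pluripotency genes were read in separate lists. Pluripotent cells share a core of factors, and cells in the naive state, like the preimplantation epiblast, hold a further set. Of 18 core genes, 14 were lower, with a median of -0.23. Foxd3, a forkhead factor needed to keep the epiblast, was the 1 gene of these lower by 2-fold (against 0.565% of all genes). It read 185 in control, 83.97 in the Chd4 line and 69.99 in the Mbd3 line. Dppa4 differed by -0.71, and Lin28b read 62.3 in control and under the floor, at 39.2, in the Chd4 line. The central factors moved little: Nanog read 2305 and 1869, Pou5f1 192 and 163, and Sox2 1459 and 1575.

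Of the 24 naive genes compared, 15 were higher and 9 lower, and the median was 0.12, with none past 2-fold in either direction. By 1.5-fold or more 2 were higher (against 4.03% of all genes) and 1 was lower (against 3.56%). The genes named below are all from the higher side. Over all 25 on the array the median was 0.07. The difference between the core and naive lists was not tested. Klf2, a Krüppel-like factor of the naive state, was the highest of them, at 761 in control, 1249 in the Chd4 line and 542 in the Mbd3 line. Tfcp2l1 read 904, 1312 and 1414, and Cdh1, the gene of E-cadherin, 1158, 1812 and 1224. These differences lie around 0.71 on the log2 scale, the 95th percentile of the spread between probe sets of 1 gene, at 0.72 for Klf2, 0.54 for Tfcp2l1 and 0.65 for Cdh1.

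Some genes that mark the move out of the naive state were low. Tcf15, a basic helix-loop-helix factor tied to priming of stem cells for differentiation, read 598 in control, 241 in the Chd4 line and 387 in the Mbd3 line at day 0. Lef1, a nuclear partner of beta-catenin in WNT signaling, read 170.4, 69.1 and 152, so it was low in the Chd4 line alone among the 3. Pou3f1, an early epiblast and neural factor, differed by -0.76. Gbx2 is not one of these markers but a homeobox gene downstream of LIF. It read 189, 85.3 and 100.5, with a second probe set at -0.25. Of 20 primed epiblast genes 12 were lower, 2 of them by 2-fold (against 0.565% of all genes), 1 was higher by 2-fold (against 0.692%) and the median was -0.15. Fgf5 and Otx2, the usual markers of the formative epiblast, differed by -0.24 and 0.14.

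The gene higher by 2-fold among them was Lefty2. LEFTY1 and LEFTY2 are secreted inhibitors of NODAL, and their genes lie next to each other. Lefty2 read 205 in control, 573 in the Chd4 line and 157 in the Mbd3 line at day 0, 2.79-fold higher in the Chd4 line. Lefty1 read 267, 472 and 240.3, 1.76-fold higher. Nodal, their target, went the other way with 334, 234 and 246. Skil, a repressor of SMAD signaling that NODAL and activin induce, was 2.13-fold lower, from 379 to 177. The 2 Lefty genes are close copies, so how far their probe sets share signal is uncertain. At day 4 both were higher in the Chd4 line, Lefty2 at 274 against 81.6 and Lefty1 at 427 against 114.

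The lowest list of all was that of Zscan4 and other genes of the 2-cell-like state, in which a small share of stem cells briefly expresses genes of the 2-cell embryo. Zscan4e read 284 in control, 82.5 in the Chd4 line and 118 in the Mbd3 line at day 0, and between 108 and 128 in the day 4 arrays. Zscan4c read 124, 59.8 and 77.2, and Zscan4d 88.6, 43.7 and 49.99. Zscan4b was at least 2.21-fold lower in the Chd4 line. Usp17le, a deubiquitinase gene of the same state, read 131, 53.9 and 51.95. In all 5 genes control was the highest of the day 0 arrays.

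Of the 28 genes of that list on the array, 16 passed the filter, 14 of them lower, 10 by 1.5-fold or more (against 3.56% of all genes) and 5 by 2-fold (against 0.565%), with a median of -0.63. Over the same 16 genes the median of the Mbd3 line against the same control array was -0.83, so the shift was not particular to the Chd4 line. Over all 28 the median of the Chd4 line was -0.38, since 12 genes were too dim to compare, Zfp352 among them at 31.3 and 34.1. The Zscan4 copies are close to identical in sequence, so their probe sets cannot be taken as separate measurements. In these bulk samples fewer cells of a type and less RNA per cell cannot be told apart, which holds for every list here.

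**Figure D3:**
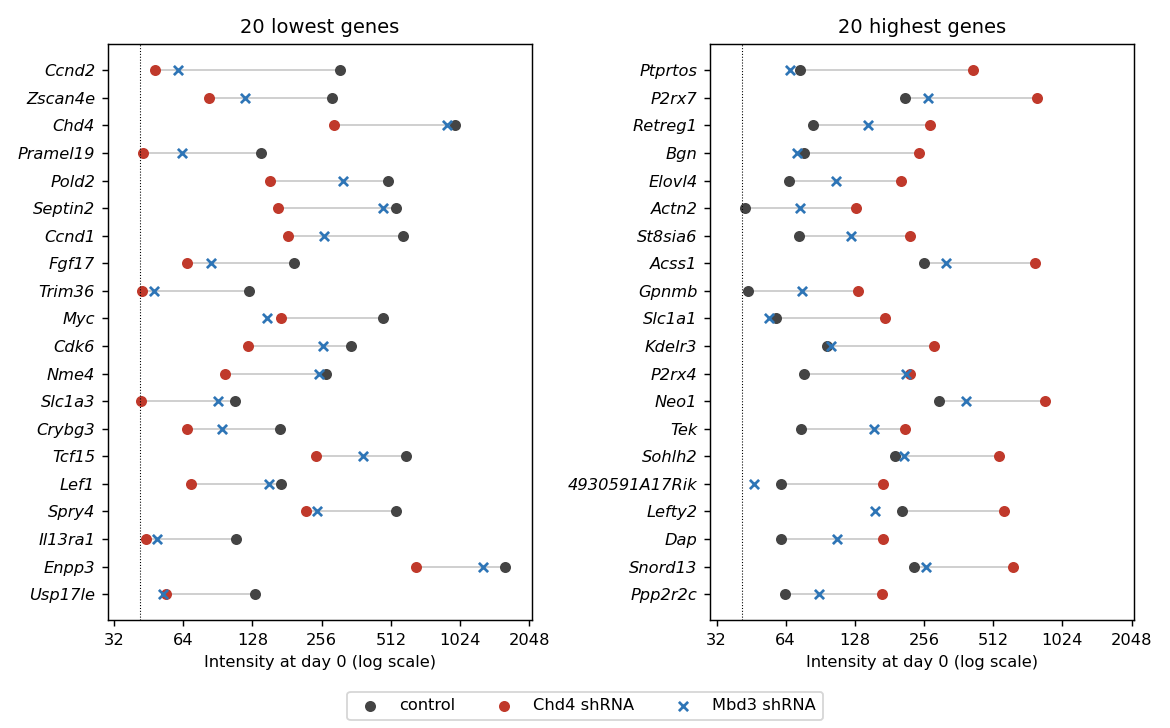
Intensity at day 0 (log scale) of the 20 lowest (left) and 20 highest (right) genes in the Chd4 line among genes above the floor in both arrays, with the control array in grey, the Chd4 shRNA array in red and the Mbd3 shRNA array as a blue cross. The dotted line is the floor of 41.4, and the crosses of Septin2, Nme4, Kdelr3 and Sohlh2 lie near control, while those of Ccnd2, Myc and P2rx4 lie near the Chd4 array.

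On the high side, the ATP-gated channel genes P2rx7 and P2rx4 stood out as neighbours. Their proteins, P2X7 and P2X4, open to cations when extracellular ATP binds. P2rx7 read 212 in control, 792 in the Chd4 line and 265 in the Mbd3 line at day 0, 3.73-fold higher in the Chd4 line. P2rx4 read 76.5, 223 and 214, 2.91-fold higher in the Chd4 line, and here both knockdown arrays were high. At day 4 P2rx7 read 76.3, 157 and 233, and P2rx4 106, 126 and 151.

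P2ry6, whose receptor answers to UDP, read 52.97, 109 and 57.9. Of 13 P2X and P2Y genes on the array 6 could be compared, and these 3 were higher by 2-fold or more (against 0.692% of all genes). The median of the 6 was 0.67, but over all 13 it was 0.04. The other compared members were level or slightly higher, P2rx2 at 0.30 and P2rx5 at -0.09, and P2rx1, P2rx3 and P2rx6 were under the floor in both arrays.

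The 250 bases before the annotated starts of the pair are printed because they are the adjacent genes with the largest differences in 1 direction, and their CpG steps, the sites of DNA methylation that MBD2 reads, are in capitals. The sequences are RefSeq's on GRCm38.p6, both genes on the plus strand and written 5′ to 3′. The first start of P2rx7, at chr5:122643677-122643926, has 6 CpG in this window, and P2rx4, at chr5:122707294-122707543, has 13. The median over 13259 windows of the genes compared was 15.

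P2rx7: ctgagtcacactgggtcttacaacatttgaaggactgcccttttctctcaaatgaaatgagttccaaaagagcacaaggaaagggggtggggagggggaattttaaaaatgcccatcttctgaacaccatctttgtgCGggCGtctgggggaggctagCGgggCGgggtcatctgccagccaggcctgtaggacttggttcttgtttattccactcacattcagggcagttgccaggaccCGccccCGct
P2rx4: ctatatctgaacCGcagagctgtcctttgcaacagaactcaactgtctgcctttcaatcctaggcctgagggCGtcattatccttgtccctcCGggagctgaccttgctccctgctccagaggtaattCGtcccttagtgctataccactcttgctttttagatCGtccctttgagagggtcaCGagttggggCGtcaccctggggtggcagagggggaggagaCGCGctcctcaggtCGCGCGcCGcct

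Pairs of this kind were few. Among 9597 pairs of genes that neighbour each other in RefSeq's order and were both compared, 5 were past 2-fold in the same direction as measured and none in opposite directions. The other 4 were Zscan4b with Zscan4c, Zscan4c with Zscan4d, the testis histone genes H2bc1 and H2ac1, and Ksr1 with Wsb1. H2ac1 read 299 in control, 686 in the Chd4 line and 316 in the Mbd3 line, and H2bc1 was at least 1.53-fold higher, a bound that does not reach 2-fold. The Zscan4 pairs are of copies whose probe sets are not separate measurements. The 2 histone genes, Ksr1 and Wsb1 were named because they form such pairs.

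The highest gene was Ptprtos, a noncoding RNA gene named for lying on the strand opposite to the phosphatase gene Ptprt. It read 74.1 in control, 417 in the Chd4 line and 67.1 in the Mbd3 line at day 0, and 53.6, 718 and 85.2 at day 4. Both Chd4 arrays were high and the other 4 between 53.6 and 85.2. Nxf3, of the family of messenger RNA export factors, was similar: 35.9 in control, 136 in the Chd4 line and 51.7 in the Mbd3 line at day 0, at least 3.27-fold higher, and 65.4, 450.2 and 138 at day 4. The general export receptor Nxf1 differed by 0.13, and Nxf2 and Nxf7 were under the floor in both day 0 arrays.

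Sohlh2, a transcription factor gene of young germ cells, read 192 in control, 543 in the Chd4 line and 209 in the Mbd3 line at day 0, and 307, 1697 and 934 at day 4. It was the 1 gene of 17 compared on the germline and meiosis list that was higher by 2-fold (against 0.692% of all genes). Zp3, an egg coat gene, was the 1 lower (against 0.565%), at 126 and 59.1, and the list's median was 0.09. Mael, a piRNA pathway gene, differed by -0.84 and Stra8, the gene of meiotic entry, was at least 1.39-fold higher. The Pramel, Rhox and Fthl17 families, which cluster in the genome and are read in early germ cells, had 13 of 15 compared genes higher, 4 by 1.5-fold (against 4.03% of all genes), with a median of 0.23. Over all 33 on the array the median was 0.04. The other 2 compared genes were both lower by 1.5-fold or more (against 3.56% of all genes). Pramel19 was the 1 gene lower by 2-fold (against 0.565%). It read 139 in control, 42.8 in the Chd4 line and 63.1 in the Mbd3 line. Pramel30 was at least 1.62-fold higher, and Fthl17b read 47.8 and 77.7.

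Lysosome and autophagy genes were higher in number. Lysosomes digest what autophagy and endocytosis bring in, and many of their genes carry the CLEAR element that the factors TFEB and TFE3 bind. Of 29 such genes, 22 were higher, 8 by 1.5-fold or more (background 4.03%) and 3 by 2-fold (background 0.692%), none was lower by 1.5-fold, and the median was 0.25. Retreg1, a receptor that hands endoplasmic reticulum to autophagosomes, read 84.1 in control, 272 in the Chd4 line and 146 in the Mbd3 line. Gpnmb, a glycoprotein gene of lysosomes and melanosomes, read 43.9, 132 and 75.2. Ctsl, the gene of the protease cathepsin L, read 442, 1021 and 773. In all 3 the Mbd3 array lay between the other two.

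Map1lc3b, which coats autophagosomes, was 1.90-fold higher, from 491 to 933. The 2 proteases Ctsb and Ctsa, the latter named as one with the element, differed by 0.80 and 0.79. The genes of the regulators themselves were lower, Tfe3 at -0.52 and Tfeb at -0.31, and Sqstm1, an autophagy receptor, differed by 0.13; Tfeb was named for its role. The list's median in the Mbd3 line at day 0, against the same control array, was 0.33, beside 0.25 in the Chd4 line. The shift of the list was thus not particular to the Chd4 line. At day 4 the list's median between Chd4 line and control was 0.18. Retreg1 was then still the higher in the Chd4 line, at 219 against 118, and Ctsl the lower, at 477 against 725.

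The CLEAR E-box, searched as CACGTG on both strands, stood in 8 of 33 promoter windows of that list (24.2%) against 8.32% of all windows of the same length. The genes that hold it were Ctsa, Ctsd, Ctsl, Fnip1, Gla, Lamp1, Mcoln1 and Retreg1, with a median log2 difference of 0.48, beside 0.17 for the 18 genes with a window and without it. The windows of the 2 that were past 2-fold are shown with the E-box in capitals. For Ctsl it is chr13:64370521-64370770 on the minus strand, and for Retreg1 it is the window of the last of its 4 annotated starts, chr15:25942429-25942678 on the plus strand, where the other 3 windows hold no E-box. A match describes letters and not a bound site. The list holds genes of a kind known to carry the element, so a larger share than over all windows was built into it. The medians of genes with and without the E-box were not tested against each other.

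Ctsl: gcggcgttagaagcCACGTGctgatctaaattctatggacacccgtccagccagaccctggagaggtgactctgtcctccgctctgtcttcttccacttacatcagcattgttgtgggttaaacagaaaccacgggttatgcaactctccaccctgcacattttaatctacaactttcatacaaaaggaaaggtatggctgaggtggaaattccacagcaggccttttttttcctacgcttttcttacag
Retreg1: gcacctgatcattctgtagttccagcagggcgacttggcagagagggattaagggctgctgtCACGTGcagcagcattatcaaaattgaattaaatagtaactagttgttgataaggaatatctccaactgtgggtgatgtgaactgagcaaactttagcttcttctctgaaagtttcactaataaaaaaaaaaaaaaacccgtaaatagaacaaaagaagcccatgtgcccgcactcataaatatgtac

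Genes of the integrated stress response were also more often higher than lower. When amino acids run short or the endoplasmic reticulum is under load, translation of ATF4 goes up and ATF4 switches on genes of amino acid supply and stress. Of 28 such genes compared 21 were higher, 6 by 1.5-fold (against 4.03% of all genes) and 1 by 2-fold (against 0.692%), 1 was lower by 1.5-fold (against 3.56%), and the median was 0.29. Over all 32 on the array it was 0.20. Nupr1, a small stress-induced chromatin protein gene, read 50.8 in control, 132 in the Chd4 line and 53.1 in the Mbd3 line. Chac1, which breaks down glutathione, read 44.2, 81.2 and 45.8. Herpud1, of protein quality control in the endoplasmic reticulum, read 118, 219.5 and 96.1. For each of the 3 the Chd4 array was the highest of the 3 day 0 arrays, and the Mbd3 array lay near or below control.

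Atf4 itself read 233, 370.2 and 192, and Asns, the asparagine synthetase gene, 678, 1042 and 732. Slc7a3, a transporter of cationic amino acids, was the 1 gene lower by 1.5-fold, at 749.6 and 398. Trib3 and Ddit3 differed by 0.36 and 0.54. The heat shock and unfolded protein list showed no such shift, with a median of -0.04, none of 24 past 2-fold, and Hspa5 at -0.09. The medians of the stress response list were -0.09 in the Mbd3 line at day 0 and 0.01 in the Chd4 line at day 4, each against control of the same day; the first shares its control array with the Chd4 comparison.

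The composite element that ATF4 binds, searched as TGATGNAA on both strands, stood in 7 of 27 promoter windows of the stress response list (25.9%) against 2.10% of all windows. The list holds genes known to answer to ATF4, so a larger share than over all windows was built into it. The genes were Asns, Atf3, Chac1, Gars, Herpud1, Nupr1 and Vldlr, with a median log2 difference of 0.62. It was 0.33 for the 17 genes with a window and no match, and the 2 medians were not tested against each other. Chac1, at chr2:119350992-119351241 on the plus strand, and Nupr1, at chr7:126625471-126625720 on the minus strand, are shown with the element in capitals, read from its reverse strand in both.

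Chac1: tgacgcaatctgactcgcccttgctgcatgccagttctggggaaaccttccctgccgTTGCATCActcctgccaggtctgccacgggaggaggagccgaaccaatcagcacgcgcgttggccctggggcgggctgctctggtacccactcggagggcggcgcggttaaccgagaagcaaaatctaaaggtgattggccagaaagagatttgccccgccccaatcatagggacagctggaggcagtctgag
Nupr1: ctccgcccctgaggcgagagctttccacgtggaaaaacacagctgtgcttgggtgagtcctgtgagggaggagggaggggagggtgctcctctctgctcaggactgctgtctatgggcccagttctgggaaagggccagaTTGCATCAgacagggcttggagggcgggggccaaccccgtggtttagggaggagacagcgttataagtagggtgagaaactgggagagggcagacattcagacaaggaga

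**Figure D4:**
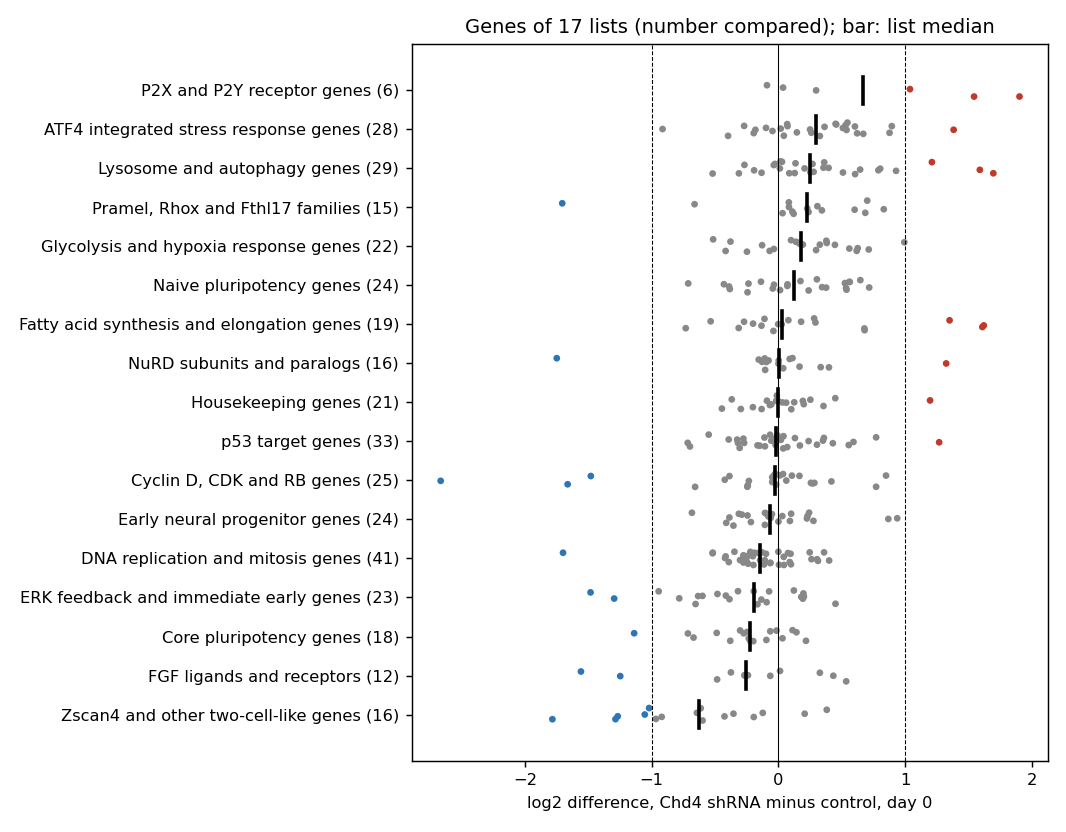
Log2 difference between Chd4 shRNA and control at day 0 (horizontal) for each compared gene of 17 lists, ordered by list median (black bar), with the number of genes compared in parentheses and dashed lines at 2-fold. Genes past 2-fold are red (higher) or blue (lower), and the medians run from 0.67 for the P2X and P2Y genes to -0.63 for the Zscan4 list.

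Fatty acid genes gave 3 of 19 higher by 2-fold (against 0.692% of all genes) and none lower (against 0.565%), around a median of 0.03. Elovl4, which elongates very long chains, read 66.04 in control, 203 in the Chd4 line and 106 in the Mbd3 line. Acss1, which makes acetyl-CoA from acetate in mitochondria, read 256, 779 and 319, and a second Acss1 probe set was too dim to compare. Cpt1a, which lets fatty acids into mitochondria for burning, read 229, 584 and 351. The Chd4 array was the highest of the 3 in each. Elovl6, of the ordinary elongation path, was lower at -0.73. Cholesterol synthesis genes had a median of -0.01, with none of 18 past 2-fold and Dhcr7, the last enzyme of the path, at -0.68. Glycolysis and hypoxia genes were slightly higher, 15 of 22 with a median of 0.18, led by the phosphofructokinase gene Pfkp at 1004 and 1998.

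Other genes among the 20 highest had varied roles. Bgn, the proteoglycan biglycan, read 76.97 in control, 244 in the Chd4 line and 71.96 in the Mbd3 line, but a second Bgn probe set read 82.2 and 91.4, so the gain rests on 1 of 2. Neo1, the receptor neogenin, read 298, 857 and 390.4. Slc1a1, a transporter of glutamate and cysteine, read 58.1, 173 and 53.9. For Neo1 and Slc1a1 the Chd4 array alone was high. St8sia6, a sialyltransferase gene, was 3.05-fold higher, Kdelr3, which returns proteins to the endoplasmic reticulum, 2.93-fold, the angiopoietin receptor gene Tek 2.86-fold and Actn2, an alpha-actinin gene, 3.06-fold. Serpinh1, the collagen chaperone gene, read 125 and 231. Over 25 extracellular matrix genes the median was -0.00, with Bgn the 1 higher by 2-fold (against 0.692% of all genes).

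Other high genes, chosen after their values were seen, lay closer to 2-fold. Aqp3, a channel for water and glycerol, read 290.0 in control, 599 in the Chd4 line and 387 in the Mbd3 line. Slc7a1, a carrier of arginine and lysine, read 170.3, 376 and 139. Usp26, a deubiquitinase gene read in testis, had 109.9, 263 and 78.5, and Pou2f3, a POU factor of tuft and skin cells, 45.7, 109 and 40.2. In these 4 genes the Chd4 array was the highest. Cd24a, a surface glycoprotein gene, read 372, 811 and 703, and its 2 probe sets gave 1.13 and 1.03. The kinesin gene Kif1a read 83.9 and 196, and the tubulin gene Tubb4a 61.3 and 123.

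B2m and H2-K1, which encode the light chain and a heavy chain of class I histocompatibility molecules, were both 2.29-fold higher. B2m read 207 in control, 475 in the Chd4 line and 237 in the Mbd3 line, and H2-K1 47.9, 109.8 and 49.9. The interferon genes Irf7, Ifit1 and Isg15 were under the floor in both arrays. Of the 12 interferon and antiviral genes compared 11 were higher with a median of 0.12, which was 0.06 over all 21 on the array. B2m and H2-K1 are themselves counted among the 12 and were the 2 higher by 2-fold (against 0.692% of all genes). B2m is also on the housekeeping list, where it was the 1 gene of 21 higher by 2-fold (against 0.692% of all genes). The median of that list was -0.00.

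Further lists are given by their medians. Targets of p53 had a median of -0.02 over 33 genes, 15 higher and 18 lower. Cd80, a ligand of T cells, was the 1 higher by 2-fold (against 0.692% of all genes), at 109 and 262. Mdm2 differed by -0.02, and Tigar and Polk were the lowest at -0.72 and -0.70. Early neural progenitor genes had a median of -0.07 over 24 with none past 2-fold, Sox1 at 46.5 and 36.4 and Pax6 at 93.8 and 58.5. The retinoid-binding protein genes Crabp1 and Crabp2 were the high members, at 0.94 and 0.87. Mesoderm and endoderm genes had medians of -0.02 and -0.00, with none of 17 and 18 past 2-fold. DNA methyltransferase and TET genes had a median of -0.18 over 8 with 6 lower, the LIN28, IMP and HMGA genes -0.22 over 6 with 5 lower, the septin genes 0.21 over 10 with 6 higher, and Polycomb subunits 0.06 over 16. The 1 Polycomb gene higher by 2-fold (against 0.692% of all genes) was Phf19, at 107 and 242. It encodes a reader of methylated histone H3 in the second Polycomb complex.

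By gene type, 87 of the 93 higher and 74 of the 76 lower genes were protein coding. Most of the genes compared were of this type too, 12497 of 13445. Small nucleolar RNA genes had a median of 0.19 over 74 compared, with 1 higher by 2-fold (against 0.692% of all genes). That was Snord13, a box C/D RNA, at 232 in control, 624 in the Chd4 line and 259.8 in the Mbd3 line at day 0 and 430.1, 116 and 214 at day 4.

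Promoter windows differed somewhat between the sets. The 75 higher genes with a RefSeq window had 100 windows with a median of 11 CpG, the 55 lower genes had 70 windows with a median of 13, and the 10516 genes compared that had a window gave 15. A TATA box, searched as TATAAA on both strands, stood in 11% of the windows of higher and 15.7% of those of lower genes, against 6.79% of all. A TCF site, searched as CTTTGA on both strands, stood in 14% and 21.4%, against 10.3%. The E-box stood in 12% and 11.4%, and the ATF4 element in 4% and 2.86%. Since the genes were picked from the same arrays for their size, these shares are descriptions, and several windows can belong to 1 gene.

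The Mbd3 line at day 0 is read against the same control array, so its values cannot be an independent check and are only set beside those of the Chd4 line. Over the 93 genes higher in the Chd4 line the median difference of the Mbd3 line from control was 0.28, and over the 76 lower genes it was -0.50. Ccnd2 differed by -2.66 in the Chd4 line and -2.34 in the Mbd3 line, Myc by -1.48 and -1.68, and Spry4 by -1.30 and -1.14. Septin2 differed by -1.70 and -0.19, Nme4 by -1.46 and -0.10, and Lef1 by -1.30 and -0.17. The first 3 were thus low in both lines on these arrays, and the last 3 in the Chd4 line, with the Mbd3 line within 0.19 of control. Plet1, a placental surface gene, was opposite, at 231 in control, 499 in the Chd4 line and 89.9 in the Mbd3 line.

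The day 4 pair shares no array with the day 0 pair and shows what became of these genes, in cells whose Chd4 stood at 71.3% of control by then and whose controls had begun to differentiate. Far more genes differed at day 4, 697 higher (5.07%) and 913 lower (6.64%) by 2-fold of 13744 compared. Of the 93 genes higher at day 0, 60 were higher at day 4 too (64.5%), where 48.2% of all genes were, and 35 were higher and 15 lower by 2-fold, beside 4.8% and 5.44% of all. Their median day 4 difference was 0.48. The 35 genes shared are 37.6% of the 93 and 5.02% of the 697.

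Of the 76 genes lower at day 0, 36 (47.4%) were higher at day 4, the median was -0.06, and 12 were lower and 13 higher by 2-fold. The 12 shared genes are 15.8% of the 76 and 1.31% of the 913. Across all 13445 genes the day 0 and day 4 differences had a Pearson correlation of 0.056, a description over genes, which are not independent replicates.

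Those that stayed high include Ptprtos, Nxf3 and Sohlh2, with day 4 differences of 3.74, 2.78 and 2.47. Cpt1a and Acss1 were also high at both days, at 2.51 and 1.44 at day 4. Ccnd2 and Ccnd1 stayed low, at -3.97 and -1.82. Among the low genes that turned were Tcf15 and Spry4, at 1.86 and 1.31. In control cells both are much dimmer at day 4 than at day 0, Tcf15 with 598 and 100.4 and Spry4 with 538 and 77.5. In the Chd4 line Tcf15 read 241 and 364 at the same days.

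**Figure D5:**
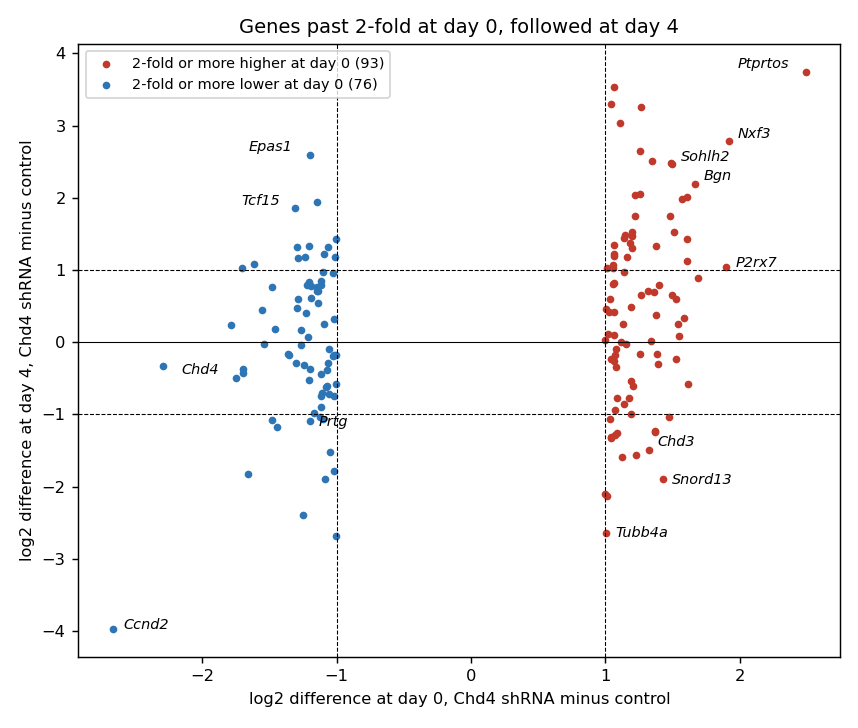
Log2 difference between Chd4 shRNA and control at day 0 (horizontal) and day 4 (vertical) for the 93 genes higher (red) and 76 lower (blue) by 2-fold at day 0, with dashed lines at 2-fold. Red points lie above 0 in 60 of 93 genes, blue points lie on either side, and Ccnd2 stands alone at the lower left.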

How the data were processed

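The values are intensities per probe set of Mouse Gene 2.0 ST arrays on a linear scale, as deposited by the authors, who analysed the arrays in GeneSpring GX 12.6.1 per the series design text. RMA, which equalizes the arrays' distributions, is named in the submitters' processing notes with no version. The sources used here do not give the build to which probe sets were mapped. Equalized distributions hide any shift common to all genes.

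Probe sets were named from the platform annotation, with symbols updated through gene IDs to RefSeq (GRCm38.p6) for 23328 of 23521; 1814 probe sets with several symbols and 9016 with none were left out. Differences are log2 intensity of 1 array minus that of the other, with no pseudocount. The 48 gene lists hold 1034 symbols, of which 931 matched, 5 matched a synonym and 98 were not analysed here. Members, floor and lists were chosen with earlier results of these data known. The p53 gene itself was not analysed here.

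The rule for naming covered the NuRD genes, the 20 highest and 20 lowest genes above the floor in both arrays, and the 6 highest and 6 lowest bounds. Of each list it covered members past 2-fold, the 4 of largest difference and preset key genes. The text names only part of the genes covered. The postmitotic neuron list and the fibroblast and mesenchyme list, for example, each had 1 gene lower by 2-fold (against 0.565% of all genes) that is not named. Key genes such as Klf4 and Esrrb are not named either. Markers aside, Nop2, Lockd, E2f8, Spred1, Mki67, Tfe3, Tfeb, Ctsb, the motif-bearing genes and the neighbour pairs fall outside the rule. They were chosen after their values were seen, as were the genes said to be so in the text.

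Counts past 2-fold used no test. The functions were tested on simulated data. Alternatives were another filter, no filter, 16 subtracted from each intensity, centring, quantile normalization, means over probe sets, values set to the floor, a 1.5-fold threshold and probe sets in place of genes. Python 3.11.15, numpy 2.4.6, pandas 2.3.3, scipy 1.17.1 and matplotlib 3.10.9 were used.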

Additional observations from a re-analysis of the deposited data

Results flagged for a closer look

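For 26 genes the Chd4 line differed from control by 2-fold or more at both days but in opposite directions, also with values under the floor set to it, 15 of them higher at day 0 and 11 lower. Each day has 1 array a side, so the difference between days was not tested. The values are log2 differences between Chd4 shRNA and control at day 4.

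Of the genes higher at day 0, these were lower at day 4: the brain tubulin gene Tubb4a (-2.65), the mitochondrial gene Ndufa4l2 (-2.13), the small RNA genes Rny3 (-2.10) and Snord13 (-1.89), the surface genes Cd24a (-1.59) and Adgrg1 (-1.28), the kinesin gene Kif1a (-1.56) and the CHD4 paralog Chd3 (-1.49). Cnksr2 (-1.33), Lipg (-1.31), E2f6 (-1.26), Kctd12 (-1.24), Copz2 (-1.22), Klhdc2 (-1.06) and Dap (-1.03) were lower too.

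Of the genes lower at day 0, these were higher at day 4: Epas1 (2.59), Arl14epl (1.94), Tcf15 (1.86), Nexmif (1.43), Slc27a2 (1.34), Mc5r (1.31), Spry4 (1.31), Castor1 (1.19), Phc1 (1.18), Enpp3 (1.17) and Pramel19 (1.03).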

How the results depend on the processing

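Subtracting 16 from each intensity, a constant that the lowest values leave room for, gave 189 genes higher and 135 lower by 2-fold, and a threshold of 1.5-fold gave 542 and 479. The median of the P2X and P2Y receptor genes was 0.036 with no filter and 0.87 with 16 subtracted, and that of the Zscan4 list -0.38 and -0.88. All other list medians moved by no more than 0.196, the median spread between probe sets of a gene, under the alternatives run. Of 48 list medians 7 changed sign under some alternative, none of them 0.1 or more in size. Of 919 genes on the lists or past 2-fold, 39 changed sign under some alternative. None of the 169 past 2-fold did under those that gave it a value. Filters, subtraction and the floor cannot turn a sign, so for these 169 that outcome was largely set in advance. With means over probe sets 159 of them were past 2-fold, with values set to the floor 158, and with centring or quantile normalization 165.

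Dim genes limit the folds, and differences that reach under the floor of 41.4 are bounds. No paired analysis was possible because each group has 1 array and the result comes from no test. For the same reason no replicate was left out.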
